A study of Homo sapiens with 6 samples.

Results

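The genes of melanin synthesis and of the melanosome, 10 in number, were followed after silencing of CT16 in A2058 cells. They were TYR, TYRP1, DCT, PMEL (SILV in older annotation), MLANA, SLC45A2, OCA2, GPR143, SLC24A5 and TRPM1, taken as a family by their symbols in the platform annotation and not by their response. Of these 10 genes, 9 had a probe, 1 each, among the 47289 probes with values, and DCT had none under its symbol. A2058 is an established human melanoma cell line, and CT16 is a cancer-testis antigen encoded by PAGE5. The cells received CT16 siRNA1 or a non-targeting control siRNA for 48 h, with 3 arrays per group and, per the series design, a separate culture behind each array. All samples carried the same background of transfected A2058 cells, and the comparison holds 1 cell line and 1 targeting siRNA. It asks which of these transcripts differed when CT16 was silenced.

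Melanin is made and stored in melanosomes, organelles related to lysosomes that mature in melanocytes and that melanomas retain to a variable degree. Tyrosinase (TYR) oxidizes tyrosine in the rate-limiting step, and TYRP1 and DCT act on later intermediates of eumelanin. PMEL forms the fibrils on which melanin is laid down, MLANA binds PMEL and takes part in its maturation, SLC45A2 and OCA2 are membrane proteins that affect melanosomal pH, and SLC24A5 is a cation exchanger. GPR143 is a receptor of the melanosome membrane, and TRPM1 is a cation channel. Many of these genes are textbook targets of MITF, a transcription factor that binds E-boxes, among them those of the form CATGTG. With a T in front (TCATGTG) the site is called an M-box here.

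Windows of 250 bases before an annotated start were at hand for 8 of the 10 genes, in 10 entries from RefSeq (GRCh38.p14), and PMEL and SLC45A2 were without an entry. Searched on both strands, CATGTG was in the windows of 7 genes and TCATGTG, which contains it, in those of 5, namely TYR, TYRP1, DCT, GPR143 and SLC24A5. The palindromic E-box CACGTG was in 0 of these genes. Of 35116 windows of the same length over all genes, 9.42% held CATGTG, 2.52% TCATGTG and 6.34% CACGTG. A match describes the letters of the window and not a bound site. The windows of TYR, TYRP1 and GPR143 are shown because each carries an M-box while the arrays read them differently, TYR well above background and TYRP1 and GPR143 near it. Capitals mark CATGTG or TCATGTG, or on the other strand CACATG or CACATGA.
TYR, chr11:89177625-89177874, plus strand: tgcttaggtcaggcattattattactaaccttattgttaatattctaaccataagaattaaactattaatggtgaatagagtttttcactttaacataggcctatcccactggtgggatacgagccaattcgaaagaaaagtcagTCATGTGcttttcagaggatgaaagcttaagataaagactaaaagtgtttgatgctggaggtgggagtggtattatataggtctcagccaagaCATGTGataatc
TYRP1, chr9:12693135-12693384, plus strand: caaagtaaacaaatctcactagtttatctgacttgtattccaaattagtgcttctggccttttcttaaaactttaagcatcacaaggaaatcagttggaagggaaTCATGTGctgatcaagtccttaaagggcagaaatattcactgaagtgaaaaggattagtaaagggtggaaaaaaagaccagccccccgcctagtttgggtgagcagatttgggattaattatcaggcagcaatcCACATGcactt
GPR143, chrX:9765848-9766097, minus strand: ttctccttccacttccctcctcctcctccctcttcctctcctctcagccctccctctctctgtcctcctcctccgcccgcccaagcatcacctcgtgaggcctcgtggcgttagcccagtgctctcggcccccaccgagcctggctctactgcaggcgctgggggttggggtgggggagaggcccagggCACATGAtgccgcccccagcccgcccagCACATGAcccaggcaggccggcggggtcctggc
The M-box began 105 bases before the start in TYR and 145 bases before it in TYRP1, and both genes had a second CATGTG match, at 12 and 11 bases. GPR143 had matches to the M-box at 61 and 33 bases. One of the annotated starts of DCT had M-box matches at 215 and 135 bases.

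**Figure D1:**
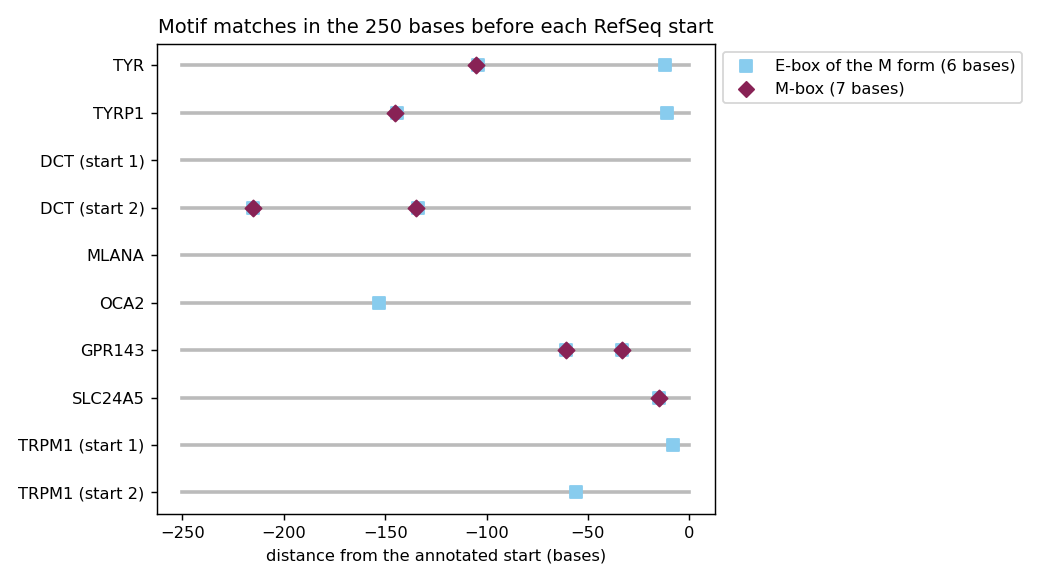
Positions of the E-box CATGTG (squares) and of the M-box TCATGTG (diamonds), on either strand, in the 250 bases before each RefSeq start; the x axis is the distance from the start in bases. TYR, TYRP1, DCT, GPR143 and SLC24A5 hold an M-box, OCA2 and TRPM1 only the shorter E-box, and MLANA neither.

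On Illumina Sentrix Human-6 arrays a probe has a bead-averaged signal and a detection p-value against negative control beads, and a probe was counted as above background at a detection p-value under 0.05. In control siRNA replicates 1, 2 and 3, 11311, 12016 and 12561 of the probes were above background, and with CT16 siRNA 13110, 12895 and 12948. These are 23.9% to 27.7% of the probes, and the median signal per array was 164.4 to 190.6. Every CT16 siRNA array thus had more probes above background than every control array. The part of this in the differences below was not tested. The probe of PAGE5 was not above background on any array (detection p-value 0.178 to 0.815), so the silencing could not be checked on these arrays. The paper reports silencing of CT16 mRNA by this siRNA in A2058 cells, measured apart from the arrays. In a principal component analysis CT16 siRNA replicate 1 lay apart, with a score of 37.53 on the component of largest variance (71.8%) against -21.13 to 9.03 for the rest, and main values without it are given as well. Of the marker genes of other cell types, 1 of 8 for keratinocytes, 3 of 7 for fibroblasts, 1 of 6 for immune cells and 2 of 4 for endothelium were measured above background on at least 3 arrays, while KRT5, KRT14, COL1A2, COL3A1, PTPRC and VWF were not above background on any array. The lineage markers outside the family were measured for 11 of 13 genes, among them SOX10, MITF and MIA.

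Of the 9 probes, TYR, PMEL and SLC45A2 were above background on all 6 arrays. OCA2 was above it on 4 arrays, TYRP1, GPR143 and SLC24A5 on 3 each, MLANA on 1 and TRPM1 on 0. The first 7 of these genes entered the test, which took probes above background on at least 3 arrays. In RNA of a whole culture, fewer cells of a type and less RNA per cell cannot be told apart.

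**Figure D2:**
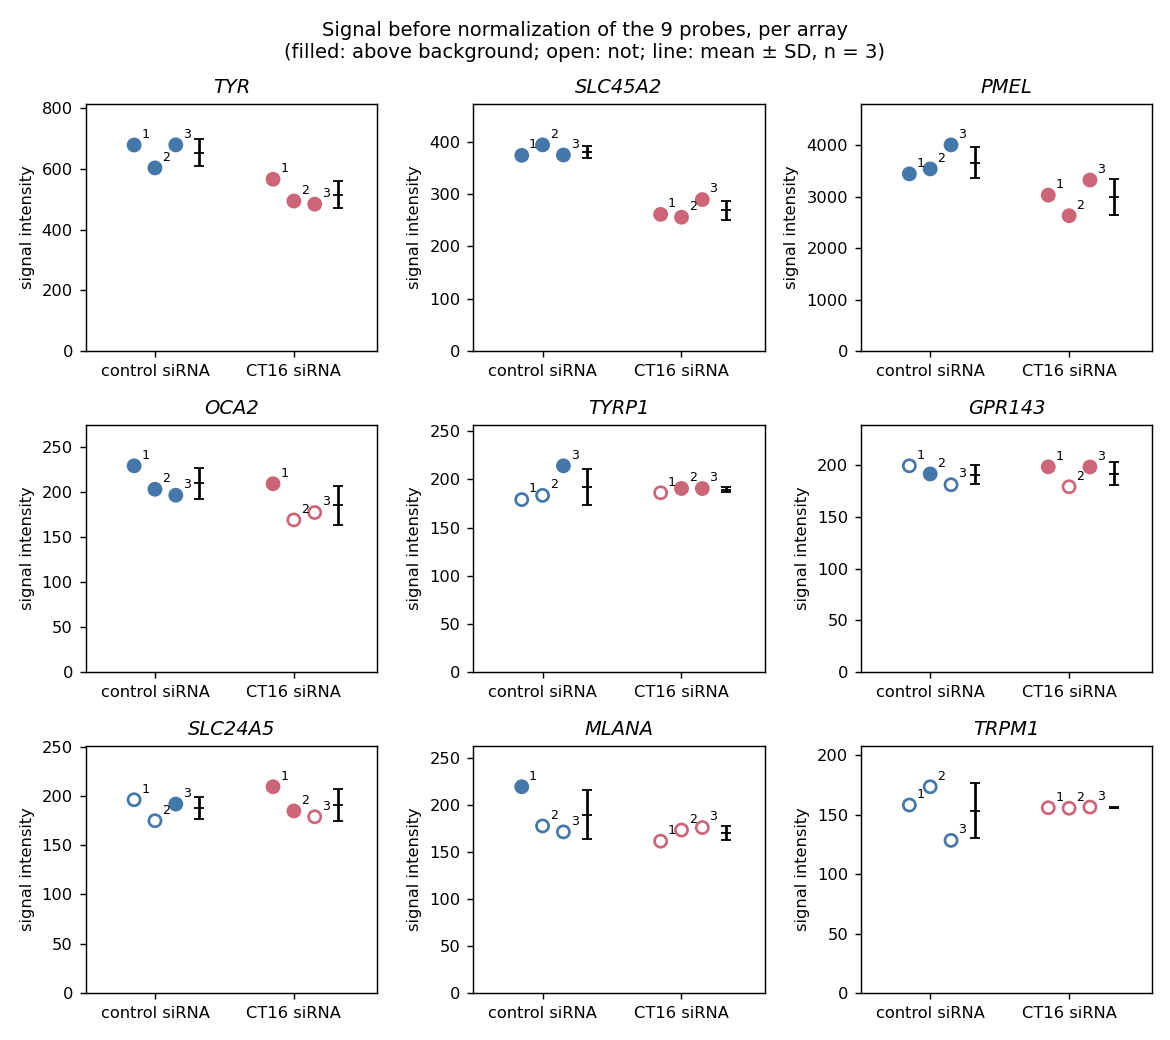
Signal intensity before normalization (y axis, from 0) of the 9 probes on each array, with control siRNA in blue and CT16 siRNA in red, the replicate number beside each point, filled points above background and open points not, and a bar for the mean ± SD (n = 3). TYR, SLC45A2 and PMEL are filled on all arrays with the CT16 siRNA points below the control points, and the other probes lie near background.

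Among the enzymes, TYR, on chromosome 11, was lower after CT16 silencing. Its signal before normalization was 678.2, 602.8 and 678.6 in control siRNA replicates 1, 2 and 3. With CT16 siRNA it was 565.5, 493.8 and 483.5. The highest CT16 siRNA array thus lay below the lowest control array. After log2 transformation and quantile normalization between the arrays, the signal was 9.54, 9.36 and 9.38 with control siRNA and 8.97, 8.85 and 8.95 with CT16 siRNA. The difference was -0.50 (limma standard error 0.10, 95% interval -0.73 to -0.27, n = 3 per group), a fold of 0.705 or 29.5% less signal. All 9 ratios of a CT16 siRNA array to a control array were below 1, from 0.621 to 0.762. The SD within the groups, 0.082 when pooled, was below the median of 0.156 over all tested probes. In limma the adjusted p over 12082 probes was 0.300 (unadjusted p = 0.00109). In the rank product, the test that the methods name, which ranks the 9 ratios of each of the 47289 probes, the false discovery rate (FDR) was 0.0362.

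TYRP1, the paralog of tyrosinase, showed no such separation. Its signal was 179, 183.4 and 214.1 with control siRNA and 186.1, 190.6 and 190.5 with CT16 siRNA, and 1 control and 2 CT16 siRNA arrays were above background. The control arrays enclosed the CT16 siRNA arrays. The log2 difference was 0.01 (standard error 0.13) with a 95% interval of -0.30 to 0.32, and after neqc background correction, which stretches low signals, it was -0.02 (standard error 0.35). DCT, the dopachrome tautomerase, was not analysed here for want of a named probe.

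PMEL, the fibril protein encoded on chromosome 12, had a signal of 3442, 3538.3 and 4004.9 with control siRNA. With CT16 siRNA the signal was 3028.4, 2628.8 and 3322.2. The groups did not overlap, although CT16 siRNA replicate 3 came close to control siRNA replicate 1. The log2 signals after quantile normalization were 11.95, 11.76 and 11.88 with control siRNA and 11.69, 11.31 and 11.53 with CT16 siRNA. The difference was -0.35 (standard error 0.12, 95% interval -0.64 to -0.07, n = 3 per group), or 21.8% less signal, and the 9 ratios spanned 0.643 to 0.950. PMEL did not pass either test, with a limma adjusted p of 0.481 (unadjusted p = 0.0220) and a rank product FDR of 0.171. Leaving out control siRNA replicates 1, 2 and 3 in turn gave FDRs of 0.675, 0.608 and 0.802, and leaving out CT16 siRNA replicates 1, 2 and 3 gave 0.0282, 0.631 and 0.0795, with differences of -0.46, -0.25 and -0.36. PMEL thus passed in 1 of these 6 settings.

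MLANA, also known as MART-1, was above background only on control siRNA replicate 1. Its signals were 219.3, 177.6 and 171.3 with control siRNA and 161.4, 173.2 and 175.9 with CT16 siRNA. The groups overlapped, and no fold is given because the bound that the background allows was under 1.

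Of the transporters, SLC45A2 on chromosome 5 had the largest difference among the 7 tested genes. Its signal was 374.3, 394.3 and 374.9 with control siRNA and 261.4, 256 and 289.7 with CT16 siRNA. All CT16 siRNA arrays were lower than all control arrays, and all 6 were above background. The log2 signals were 8.63, 8.79 and 8.56 with control siRNA against 7.88, 7.97 and 8.24 with CT16 siRNA. The difference was -0.63 (standard error 0.13, 95% interval -0.93 to -0.34, n = 3 per group), a fold of 0.645 or 35.5% less signal, with the 9 ratios from 0.529 to 0.801. The rank product FDR was 0.00622 and the limma adjusted p 0.303 (unadjusted p = 0.00130). After normalization the lowest CT16 siRNA array was replicate 1 in SLC45A2, but replicate 2 in TYR and PMEL.

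OCA2, a melanosomal membrane protein whose loss causes a form of oculocutaneous albinism, was above background on all 3 control arrays and on 1 of the CT16 siRNA arrays. Its signal was 228.6, 202.6 and 196 with control siRNA and 208.7, 168.6 and 176.8 with CT16 siRNA, and these overlapped. After quantile normalization the log2 signals of 7.72, 7.75 and 7.68 with control siRNA lay above the 7.65, 7.46 and 7.47 with CT16 siRNA. The difference of -0.19 (standard error 0.10, 95% interval -0.42 to 0.04) did not pass either test (limma adjusted p = 0.551, rank product FDR 0.850). After neqc background correction it was -0.66 (standard error 0.24, limma adjusted p = 0.520).

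SLC24A5, the exchanger linked to human skin colour, read 196.1, 174.8 and 191.7 in the controls and 209.3, 184.7 and 178.8 with CT16 siRNA. The groups overlapped, with a log2 difference of 0.04 (standard error 0.10). The melanosomal receptor GPR143 read 199.6, 191.7 and 181.3 in the controls against 198.6, 179.3 and 198.5 after CT16 silencing, with a difference of 0.04 (standard error 0.09). Both probes were above background on 1 control and 2 CT16 siRNA arrays. TRPM1 was not above background on any array, with signals from 128.4 to 173.6, and was not tested.

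**Figure D3:**
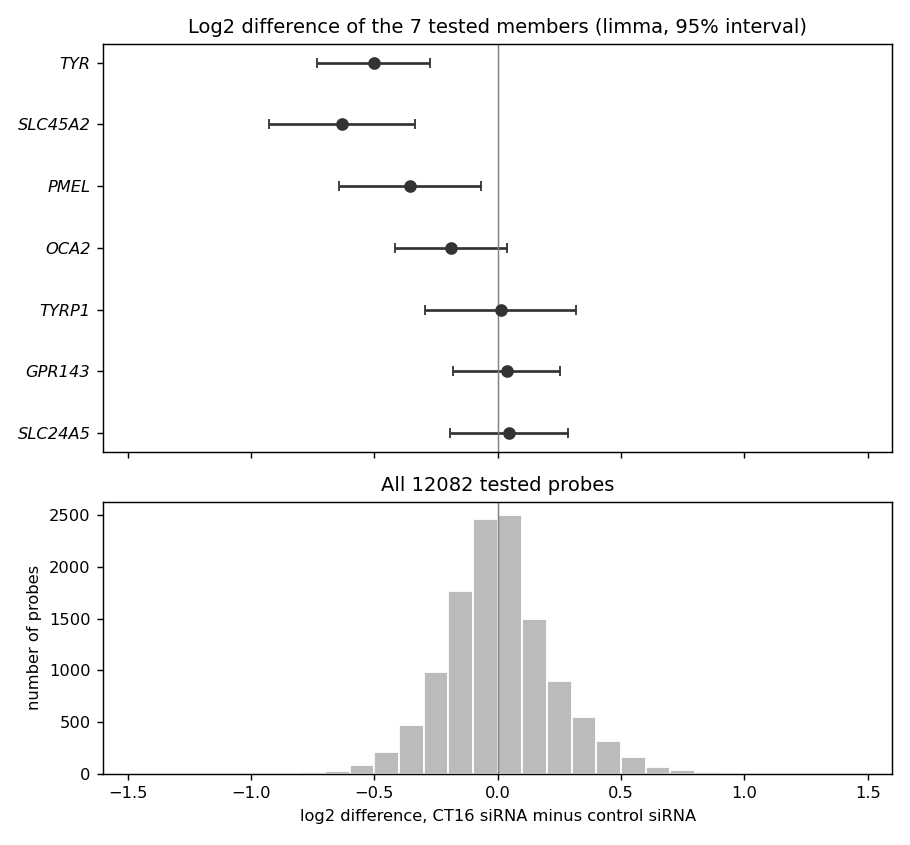
Upper panel, log2 difference (x axis, CT16 siRNA minus control siRNA) of the 7 tested genes with the 95% interval from limma; lower panel, the number of probes (y axis) at each difference among all 12082 tested. The intervals of TYR, SLC45A2 and PMEL lie below 0, while that of OCA2 and the 3 others include 0.

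Over the 7 tested genes, 4 differences were negative and 3 positive, and the median was -0.19, against 0.0003 over all 12082 probes. That median is the value of OCA2, which entered the test through its 3 control arrays, and without OCA2 it was -0.17, so it describes the 7 genes and supports no direction. At an adjusted p under 0.05 limma called 0 of the 7 genes, and over all probes also 0 (0%), with a smallest adjusted p of 0.202. At an unadjusted p under 0.05, limma had 1156 probes over the whole array, and 3 of the 7 genes were lower (TYR, SLC45A2 and PMEL), against 5.17% of all probes. The rank product called 2 of the 9 probes as lower, TYR and SLC45A2, where 0.262% of all 47289 probes were called, and it called none of the 9 as higher. Most of the 47289 probes were not above background. When only the 12082 tested probes were ranked, 45 were called lower, with 0 of the 7 genes among them. Of the 3 genes above background on all 6 arrays, all had every CT16 siRNA array below every control array, as did 11% of the 8901 probes above background on all arrays. OCA2 showed the same order, but with 3 control arrays and 1 CT16 siRNA array above background it could pass the filter only where its signal was higher, and it is not counted. Among all tested probes this order held for 8.95%. Before normalization it held for TYR, PMEL and SLC45A2 and not for OCA2, against 3.6% of probes. For TYR, PMEL and SLC45A2 the exact two-sided permutation test gave p = 0.1 on the normalized values, the smallest that 3 arrays against 3 allow. Groups without overlap always give this value, so it adds nothing to the order of the arrays.

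The rank product calls of TYR and SLC45A2 were not kept when some arrays were left out or when the arrays were shifted to a common median. With neqc the call of SLC45A2 was kept and that of TYR was not. Without control siRNA replicates 1, 2 and 3 in turn, the FDR was 0.379, 0.356 and 0.380 for TYR and 0.126, 0.304 and 0.155 for SLC45A2, and without CT16 siRNA replicate 2 it was 0.116 and 0.0513. Without CT16 siRNA replicate 1 it was 0.00754 for TYR and 0.00429 for SLC45A2, with differences of -0.54 and -0.56. Without CT16 siRNA replicate 3 it was 0.0185 and 0.00136. The number of probes called lower over the whole array moved as well, from 124 with all arrays. It was 19, 19 and 17 without control siRNA replicates 1, 2 and 3. Without CT16 siRNA replicates 1, 2 and 3 it was 153, 64 and 490. In limma, SLC45A2 passed only without CT16 siRNA replicate 3 (difference -0.74, adjusted p = 0.0414). When the arrays were shifted to a common median in place of quantile normalization, the median over all tested probes moved to 0.10. Relative to it the differences were -0.41 for TYR, -0.36 for PMEL and -0.57 for SLC45A2, and the groups did not overlap in 2 genes, TYR and SLC45A2, against 1.9% of probes. The FDR was then 0.419 for TYR and 0.0593 for SLC45A2. With neqc background correction the difference was -0.68 for TYR, -0.37 for PMEL and -1.23 for SLC45A2. The FDR was then 0.505 for TYR and 0.04 for SLC45A2. The negative sign of TYR, PMEL and SLC45A2 was present under each setting tried, although several settings could not change it. The filters, the intensity trend and the replicate block leave the difference itself as it is.

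**Figure D4:**
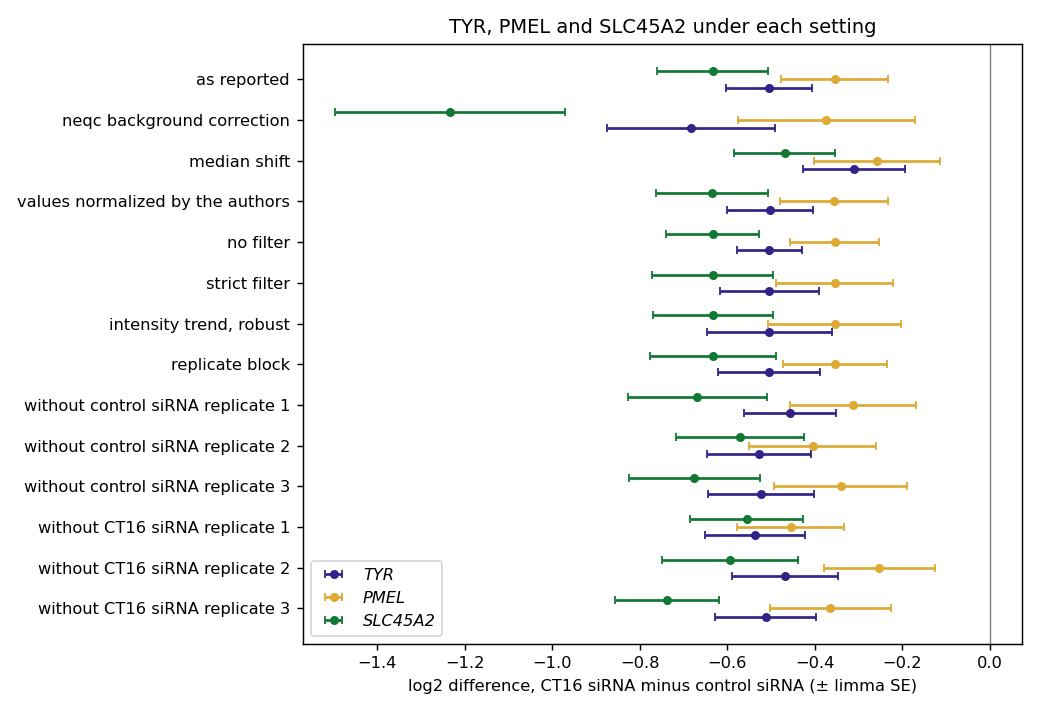
Log2 difference (x axis, CT16 siRNA minus control siRNA) of TYR, PMEL and SLC45A2 with the limma standard error as bars, under each processing setting and with each array left out in turn (y axis). All points lie below 0, with SLC45A2 at -1.23 after neqc background correction. The filters, the intensity trend and the replicate block change the bars and not the points.

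The profiles of the 3 genes over the 6 arrays were set side by side after centring each on its own mean. The root mean square difference of the log2 values was 0.109 between TYR and PMEL, 0.164 between TYR and SLC45A2 and 0.246 between PMEL and SLC45A2. Of 7516 named probes above background on all arrays, with a median of 0.293 to the mean profile of the 3 genes, the nearest were UGT2B7 (0.0471), NTAQ1 (0.0479), GAB2 (0.0565), TUBB2B (0.0645) and GRPEL1 (0.0654). These 5 were picked for this likeness, and their lower signal with CT16 siRNA follows from the choice.

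Most genes that build and move melanosomes did not show a difference like that of TYR. Of 34 such genes, 27 were measured, with 16 negative and 11 positive differences and a median of -0.03. None passed limma or the rank product. At an unadjusted p under 0.05, 2 of the 27 were lower, where 5.17% of all tested probes were, namely RAB38, a small GTPase that carries cargo to melanosomes (-0.29, standard error 0.12), and HPS5, a subunit of the BLOC-2 complex (-0.37, standard error 0.14). RAB32, which overlaps with RAB38 in function, had a difference of -0.46 (standard error 0.20), with log2 signals of 10.12, 10.42 and 10.14 with control siRNA and 9.34, 9.82 and 10.12 with CT16 siRNA, replicate 3 lying just under the lowest control. The groups did not overlap, with all CT16 siRNA arrays lower, in 6 of the 27 genes (22.2%), namely RAB32, HPS5, HPS6, AP3D1, VPS33A and TPCN2. On the normalized values this order held for 8.95% of tested probes and for 11% of the probes above background on all 6 arrays. Before normalization it did not hold for RAB32 or HPS5, against 3.6% of tested probes where it did. RAB32 then read 1154 in CT16 siRNA replicate 3 against 1006.1 in control siRNA replicate 1. HPS5 read 638.3 in CT16 siRNA replicate 1 against 602.8, 541.6 and 635.1 with control siRNA. The positive end held AP3S1 (0.50, standard error 0.30), BLOC1S2 (0.48, standard error 0.24) and GPNMB (0.41, standard error 0.23), none of which passed. Without CT16 siRNA replicate 1 these were 0.17, 0.21 and 0.20, while RAB32 was at -0.26, RAB38 at -0.40 and HPS5 at -0.50. In that setting 2 genes were lower at an unadjusted p under 0.05 (3.9% of all tested probes), and the rank product called HPS5 (FDR 0.0171, with 0.324% of all probes called). The groups, now 2 arrays against 3, did not overlap in 7 genes, against 11.2% of tested probes.

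**Figure D5:**
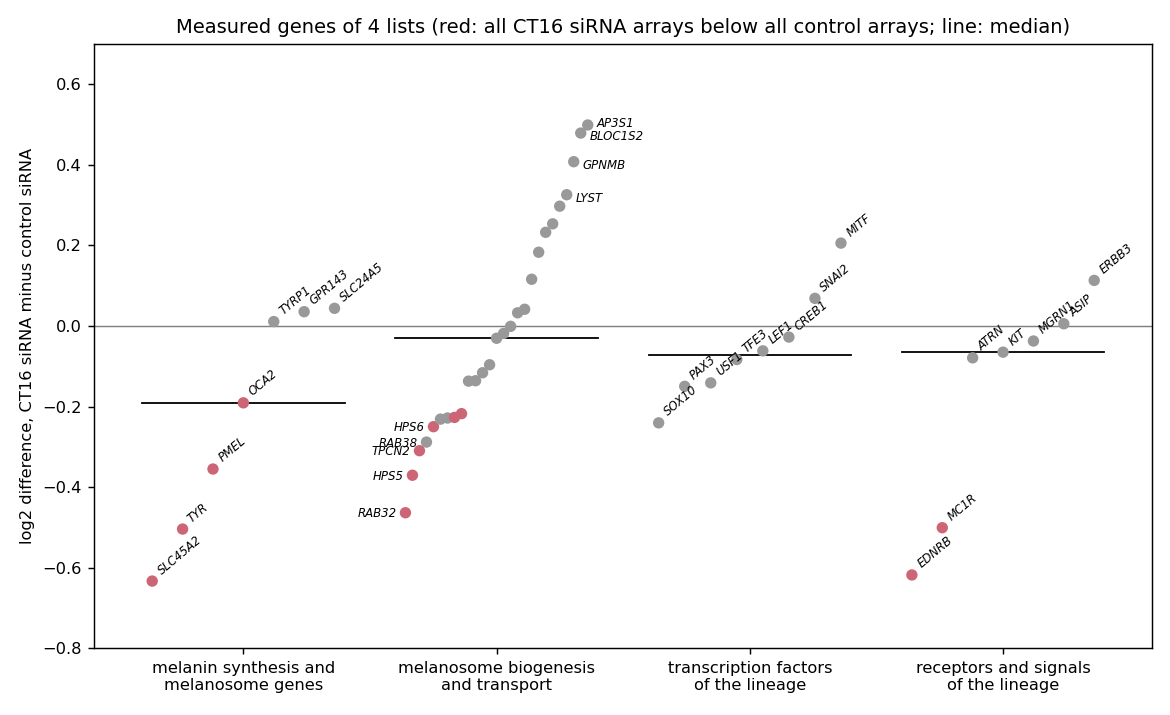
Log2 difference (y axis, CT16 siRNA minus control siRNA) of each measured gene in 4 lists, with points in red where all CT16 siRNA arrays were below all control arrays and a line at the median of each list. The medians are -0.19 for melanin synthesis and melanosome genes, -0.03 for melanosome biogenesis and transport, -0.07 for transcription factors and -0.06 for receptors and signals. The first median is the value of OCA2, which entered the test through its 3 control arrays. OCA2 is red here but is not counted in the text.

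Of 14 transcription factors of the lineage, 8 were measured, 6 with negative and 2 with positive differences, and none passed either test. MITF had log2 signals of 9.35, 8.87 and 9.29 with control siRNA and 10.05, 9.29 and 8.80 with CT16 siRNA. The groups overlapped widely, and the difference of 0.21 (standard error 0.30) was -0.13 (standard error 0.18) without CT16 siRNA replicate 1. SOX10, which acts upstream of MITF, had a difference of -0.24 (standard error 0.12), with overlap, and PAX3, USF1 and SNAI2 had -0.15, -0.14 and 0.07.

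Of 12 receptors and signals that act on pigmentation, 7 were measured and 2 were lower without overlap between the groups, where 8.95% of tested probes were. The endothelin receptor EDNRB had a difference of -0.62 (standard error 0.12) and a rank product FDR of 0.00852, a call made for 0.262% of all probes, and MC1R, the melanocortin receptor that drives eumelanin synthesis, -0.50 (standard error 0.14) with an FDR of 0.0696. Neither passed limma (adjusted p = 0.296 and 0.453). Without CT16 siRNA replicate 1 the differences were -0.56 for EDNRB and -0.39 for MC1R, with rank product FDRs of 0.0048 and 0.096. Of the other measured EDNRB probes, one had a difference of -0.72 (standard error 0.10, rank product FDR 0.0012, limma adjusted p = 0.202) without overlap, and one with signals of 193.9 to 237.8 had -0.0037. The difference of ATRN was -0.08, of ERBB3 0.11 and of ASIP 0.01.

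The summed signal of the fibroblast marker probes was 1723.3 to 2019.8 with control siRNA and 1848.3 to 2886 with CT16 siRNA, the top value lying in CT16 siRNA replicate 1, where LUM was at 1305.3. LUM, a matrix proteoglycan, had a log2 difference of 0.52 (standard error 0.31), or 0.15 without that array, while DCN had -0.09 and FAP 0.19. The differences of KRT10, CD68, PECAM1 and KDR were 0.02, 0.08, 0.26 and 0.05, and none of these markers passed limma or the rank product. FAP was higher on every CT16 siRNA array than on every control array, as were 7.39% of tested probes. PECAM1 showed the same order, but it was above background only on the 3 CT16 siRNA arrays. It could thus pass the filter only where its signal was higher, and it is not counted. The sums of the keratinocyte, immune and endothelial probes were 2418.8 to 2664.2, 1095.8 to 1241.8 and 701.6 to 760.1 with control siRNA. With CT16 siRNA they were 2469.5 to 2676.2, 1145.6 to 1213.3 and 711.5 to 770.5. The part of these markers in the differences of TYR, PMEL and SLC45A2 was not tested.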

How the data were processed

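RNA from 6 samples of A2058 cells, per the series design from separate cultures, was hybridized as biotinylated cRNA on Illumina Sentrix Human-6 arrays. Per probe and array, the authors deposited a linear signal intensity averaged over beads and not yet normalized, and a detection p-value. A further deposited set of intensity values was quantile normalized by the authors (array medians 172.58 to 172.65). Bead summary software and genome build: not given in the sources used here. Of 47296 rows, 7 were empty. Platform annotation gave 18468 probes 1 gene symbol, 0 several and 28821 none.

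Log2 signals were quantile normalized and fitted with limma 3.58.1 (lmFit, eBayes) in R 4.3.3, with Benjamini-Hochberg adjustment over the 12082 probes with a detection p-value under 0.05 on at least 3 of 6 arrays. The rank product was written anew in Python 3.11.15, with 9 log2 ratios, 100 permutations within arrays and a threshold of 0.05. Both were tested on simulated data. For genes with several probes, the probe of highest mean signal stood for the gene. From each further list, up to 3 lower and 3 higher genes of smallest limma p were named, with MITF and SOX10. HPS6, AP3D1, VPS33A, TPCN2, MIA, the other EDNRB probes and the markers at background were named after their values were seen. The nearest profiles were the 5 with the smallest root mean square difference. The genes and lists were chosen with earlier results of these data known. Groups came from the sample titles, and the number of arrays limits the precision. Alternatives were neqc (offset 16), shifting arrays to a common median, the values normalized by the authors, no filter on low signals, a stricter one (0.01 on all 6 arrays), an intensity trend, a replicate block, leaving out single arrays, ranking only probes above background and another seed. Counts over the lists without CT16 siRNA replicate 1 and the median without OCA2 were added after seeing the data.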

Additional observations from a re-analysis of the deposited data

How the results depend on the processing

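The differences of TYR, PMEL and SLC45A2 stayed negative under all 13 alternatives, at -0.68 to -0.31, -0.46 to -0.25 and -1.23 to -0.47. The filters, the intensity trend and the replicate block could not alter these differences, and the values of the authors were quantile normalized too. As the groups did not overlap, leaving out an array could hardly reverse the sign. Only neqc and the median shift could readily have done so. TYRP1 turned to -0.016 with neqc, and it ranged from -0.11 to 0.13 when each array was left out. The median over the tested genes was -0.37 with neqc and -0.50 with the strict filter, which kept 3 genes, and -0.24 to -0.15 with each array left out. Leaving out each array, limma called 0 to 313 probes (10 with CT16 siRNA replicate 1 omitted, 313 with replicate 3 of that group omitted) and 0 to 1 of the 7 genes. The rank product called 124 probes lower and 94 higher. With neqc this was 12 and 55, ranking only probes above background 45 and 25, with a median shift 41 lower, and with each array left out 17 to 490 lower and 4 to 140 higher. It called 1 of the 9 probes with neqc, 0 with a median shift, 0 among probes above background (FDR 0.206 for TYR and 0.0588 for SLC45A2) and 0 to 3 with each array left out.

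The deviations of same-numbered arrays from their group means had correlations of 0.42, 0.02 and -0.41 for numbers 1, 2 and 3. These values cannot tell whether the numbers pair the samples, and the main fit did not pair them. With the replicate number as a block, limma again called 0 of the genes, while the rank product called 1 of the 9 probes (SLC45A2, TYR at 0.0545) and 43 probes higher over the array. A block for the slide was not run, as the columns name none. Low signal limits OCA2, TYRP1, GPR143, SLC24A5, MLANA and TRPM1.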
